A study of Homo sapiens with 6 samples.

Results

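The protein part of the cytosolic ribosome is encoded by the RPL genes of the large subunit, the RPS genes of the small subunit, the stalk genes RPLP0, RPLP1 and RPLP2, and RPSA. All genes whose symbol has one of these forms were taken by symbol alone, without pseudogenes, although earlier results of these data were known. This gave 77 of the 61806 genes listed, 31 of the small and 46 of the large subunit. FAU, whose product releases a ribosomal protein from a fusion with a ubiquitin-like domain, falls outside this rule. RNA sequencing was done on MG63, a human osteosarcoma cell line, with 3 biological replicates carrying a control hairpin (shNC) and 3 carrying a stable hairpin against FTO (shFTO), an RNA demethylase that removes N6-methyladenosine. Both groups thus carry a hairpin, and RNA was enriched for poly(A) before strand-specific sequencing. Whether each line is 1 clone, and how many hairpins were used, is not known from the labels. The design asked which transcripts depend on FTO.

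Ribosomal protein mRNAs are short, stable and, in growing cells, usually among the most abundant mRNAs. Most begin with a C followed by a run of pyrimidines, the terminal oligopyrimidine (TOP) tract, through which the kinase complex mTORC1 and the RNA-binding protein LARP1 set how much of this mRNA is translated.

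Expression was given as FPKM, reads scaled by exonic length and by library depth, and dividing this scaling out returned whole read numbers. Libraries held 93629 to 106245 reads, so 1 read was worth 14.7 to 16.7 FPKM for the short RPS12 and 2.36 to 2.68 FPKM for RPLP0. FTO was listed at 0 in all 6 libraries, controls included. For FTO the upper limit of 3 reads that a count of 0 allows stands at 1.32 to 1.5 FPKM, so the knockdown could not be checked. Of 9 mesenchymal and bone markers, 6 had reads (COL1A1 139, SPARC 121, VIM 85), and ALPL, BGLAP and SPP1 were at 0. The blood and muscle markers were at 0, the endothelial and neural lists had 1 read each (PECAM1 and TUBB3), and the epithelial list had 1 read in shNC and 7 in shFTO, of which KRT18 had 0 and 6 and KRT8 1 and 1.

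Ribosomal protein genes made up a small and very unequal share of these libraries. Together they had 5711 reads, 0.963% of all reads. RPLP0, which anchors the stalk where elongation factors bind, held 25.7% of them, RPLP0 and RPL37 together held 41.1%, and the 10 genes with the most reads held 78.7%. Reads were found for 76 of the 77 genes, in all 6 libraries for 33, and at 30 reads or more for 23, while 28 had 1 to 9 reads. RPL36, of the large subunit, was listed at 0 throughout. A count of 0 allows RPL36 up to 2.23 FPKM over the 6 libraries, below the median level of 8.89 FPKM (8.885) over the 77 genes. The libraries as a whole were uneven too, and only 10 genes of any kind took up 31.8% of their reads. EIF4G2 alone had 51570 reads over the 6 libraries, whereas ACTB had 75 and GAPDH 88. Whether the low share and the inequality of ribosomal protein genes reflect the mRNA of MG63 cells was not tested.

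RPS27, a zinc-binding protein of the small subunit, had the highest level per exonic length. Its FPKM was 691, 674 and 540.3 in shNC replicates 1, 2 and 3 and 851, 538 and 1109 in shFTO replicates 1, 2 and 3. The highest value was in shFTO replicate 3 and the lowest in shFTO replicate 2, so the groups overlapped. RPLP0 followed with 675, 539 and 667 FPKM in shNC and 722, 488 and 623 in shFTO. RPLP0 again overlapped between groups and was lowest in shFTO replicate 2, and its range overlapped that of RPS27. RPL37, a small zinc-binding protein of the large subunit, had 138, 201 and 171 FPKM in shNC and 229, 151 and 209 in shFTO. RPL11, part of the particle that carries 5S ribosomal RNA, had 251, 153 and 173 FPKM in shNC and 184, 156 and 178 in shFTO. The ranges of RPL37 and RPL11 overlapped each other and lay below every value of RPLP0. RPS14, of the platform of the small subunit, came next with 127, 162 and 143 FPKM in shNC and 181.5, 102 and 122 in shFTO. Most members lay far lower, with a mean level of 69.3 FPKM at the 90th percentile of the 77 genes and 1.52 at the 10th. The medians of the subunits were close, at 8.89 FPKM (8.885) for the small and 8.55 for the large, against 2.28 FPKM over the 4932 genes tested.

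**Figure D1:**
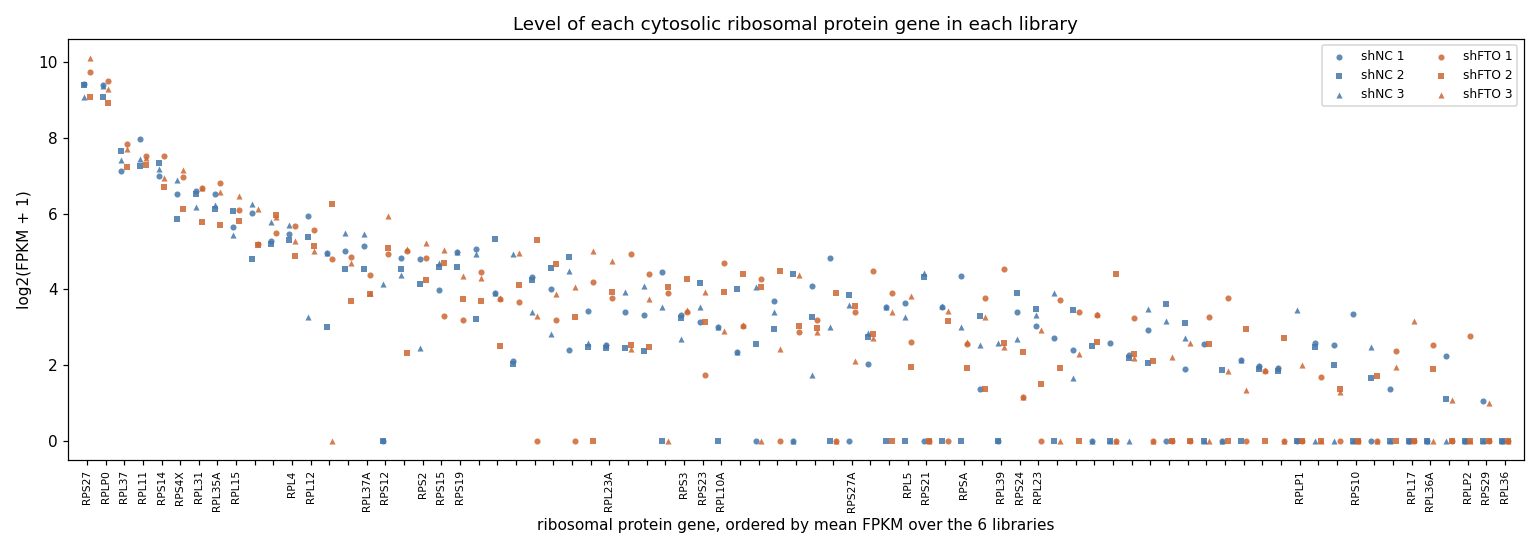
Each column is 1 ribosomal protein gene and each point its level in 1 library as log2(FPKM + 1), blue for shNC and orange for shFTO, with marker shapes for replicates 1 to 3. Genes are ordered by mean FPKM, and those described in the text are named; the points of the 2 groups lie among each other for the abundant genes on the left, and many genes on the right have libraries at 0.

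The first transcribed bases are shown for genes at both ends of this order and for RPS12, place 17 by level with 9 reads. They set the starts of abundant members beside those of members with few or no reads. The windows are 10 bases before and 20 bases from the annotated start (RefSeq, GRCh38.p14, RNA strand), in lower case with the run of C and T that opens the transcript in capitals.
RPS27 (chr1:153990752-153990781, plus strand): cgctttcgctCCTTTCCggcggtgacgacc
RPLP0 (chr12:120201092-120201121, minus strand): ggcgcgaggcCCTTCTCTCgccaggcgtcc
RPS14 (chr5:150449720-150449749, minus strand): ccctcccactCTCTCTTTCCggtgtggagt
RPL31 (chr2:101002279-101002308, plus strand): ccttcgcgctCTTCCTTTCCaacttggacg
RPS12 (chr6:132814559-132814588, plus strand): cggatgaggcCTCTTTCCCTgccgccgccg
RPLP1 (chr15:69452808-69452837, plus strand): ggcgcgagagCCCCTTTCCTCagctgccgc
RPLP2 (chr11:809957-809986, plus strand): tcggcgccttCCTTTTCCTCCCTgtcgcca
RPL36 (chr19:5690285-5690314, plus strand): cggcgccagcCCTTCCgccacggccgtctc
RPS4X (chrX:72277229-72277258, minus strand): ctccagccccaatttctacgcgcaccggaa
A C at the first base followed by at least 4 bases that are each C or T, read on the RNA strand only, was found in 46 of 77 annotated starts of the 62 genes matched in the table. That is 59.7%, against 4.07% of all 35116 starts of the same length. RPS4X, the sixth gene by level, has no such run at its annotated start, nor has RPL15, the ninth, at any of its 3, while RPL36, at 0, and RPLP2, with 1 read, do. The median level was 8.07 FPKM for the 46 genes with the tract at a start and 9.49 FPKM for the 16 without. RPL37, RPL5, RPL23A, RPS2 and other members were not matched.

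How length enters the level matters for this family. The deposited exonic lengths ran from 639 to 9840 bases for members, with a median of 3228, whereas the coding sequences of their principal transcripts (GENCODE 29) ran from 75 to 1281 bases, with a median of 456. Exonic length was 6.11 times the coding length in the median member, and 3.60 times over 4485 tested genes with a coding length. Per kilobase of coding sequence RPL37 moved from the third place to the first, with 3027 reads per kilobase over the 6 libraries, ahead of RPS27 with 1794 and RPLP0 with 1542. RPS29, whose exonic length of 9840 bases is 58.6 times its coding length, moved from place 76 to place 66. The 2 scales ordered the 77 genes alike (Spearman's rho 0.863, a description over genes that share the same reads). Level and exonic length had a rho of -0.18 over the same 77 genes.

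**Figure D2:**
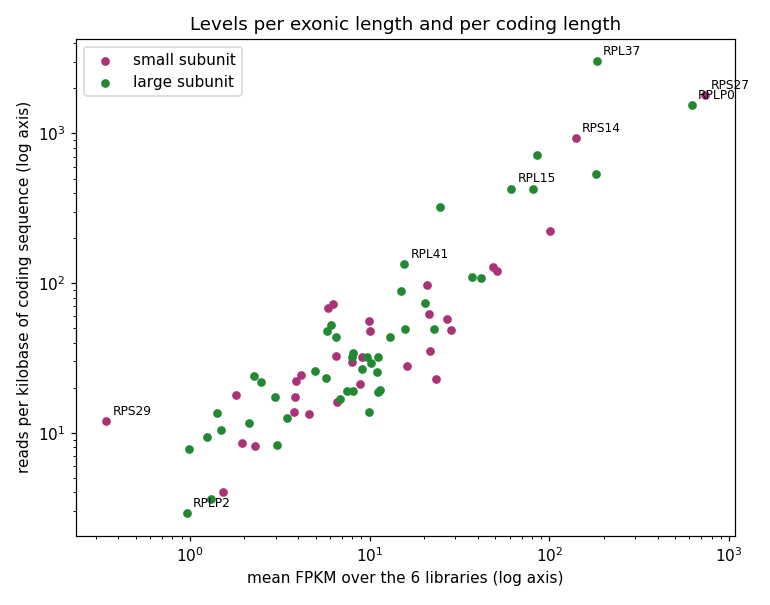
Each point is 1 of the 76 ribosomal protein genes with reads, with mean FPKM on the horizontal and reads per kilobase of coding sequence on the vertical axis, both logarithmic. RPL37 lies above the trend and ranks first on the coding scale, and RPS29 has the lowest FPKM of the genes with reads.

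Ribosomal protein genes have left many processed pseudogenes, and reads from near-identical copies can be split between them. The table listed 1350 pseudogenes named after members, and every member had at least 1, with a median of 11 and a maximum of 91 for RPL23A. Of these, 35 had reads, 362 in all, which is 5.96% of the reads of genes and pseudogenes together. RPL23P8 had 69 reads against 20 for its parent RPL23, and the RPS2 pseudogenes had 77, of which RPS2P18 had 63, against 31 for RPS2. RPS15 had 27 reads and its pseudogenes 14, of which 11 were in shNC and 3 in shFTO. Pseudogenes of RPL4 had 59 reads against 139, those of RPS3A 7 against 22, and those of RPLP0 69, of which RPLP0P6 had 68, against 1466. In all, 24 members had pseudogenes with reads, and the values of these members are uncertain. Pseudogene reads do not bound how many reads a member lost, so values of other members can be uncertain too. RPS4X, with 23 pseudogenes listed, and RPL35A, with 35, had 0 pseudogene reads. The number of pseudogenes and the level had a Spearman's rho of 0.06 over the 77 genes, which describes these libraries only.

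In the comparison of shFTO with shNC no ribosomal protein gene passed the test. Of the 75 members whose mean reached 1 FPKM in either group, 0 were called in limma on log2(FPKM + 1) at a Benjamini-Hochberg adjusted p under 0.05, where 0.0406% of all 4932 genes tested were called. Being tested depended on the level in either group, so the 75 are not the whole family: RPL36 and RPS29, with 0 and 2 reads, were left out. RPS29 is named here after its values were seen. The estimate lay above 0 (higher in shFTO) for 36 members and below 0 for 39, with a median log2 fold change of -0.01 against 0.00 (0.00395) over all genes tested. The smallest adjusted p among members was 0.772, and adjusted p-values below are from limma unless stated. At an unadjusted p under 0.05 there were 11 of 75 members, 14.7%, against a background of 3.85%, 5 of them higher and 6 lower in shFTO. With at least 10 reads it was 5 of 48 members, 10.4%, against a background of 5.21%. Limma-voom on the recovered reads gave 4 of 75, 5.33%, against a background of 5.39%. The 11 had few reads in the main, 9 of them under 30 over the 6 libraries. With 1 library left out the count ran from 4 to 14. The 4 of 74 members were found without shFTO replicate 1 (5.41%, background 3.37%). Without shFTO replicate 2 it was 14 of 75 members (18.7%, background 3.16%). Groups did not overlap for 10 of the 75, or 13.3%, where the background was 6.59%. Of these, 4 members were higher (5.33%, background 2.9%) and 6 lower (8%, background 3.69%). Among genes with at least 10 reads this was 7 of 48 members, 14.6%, against a background of 10.8%.

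**Figure D3:**
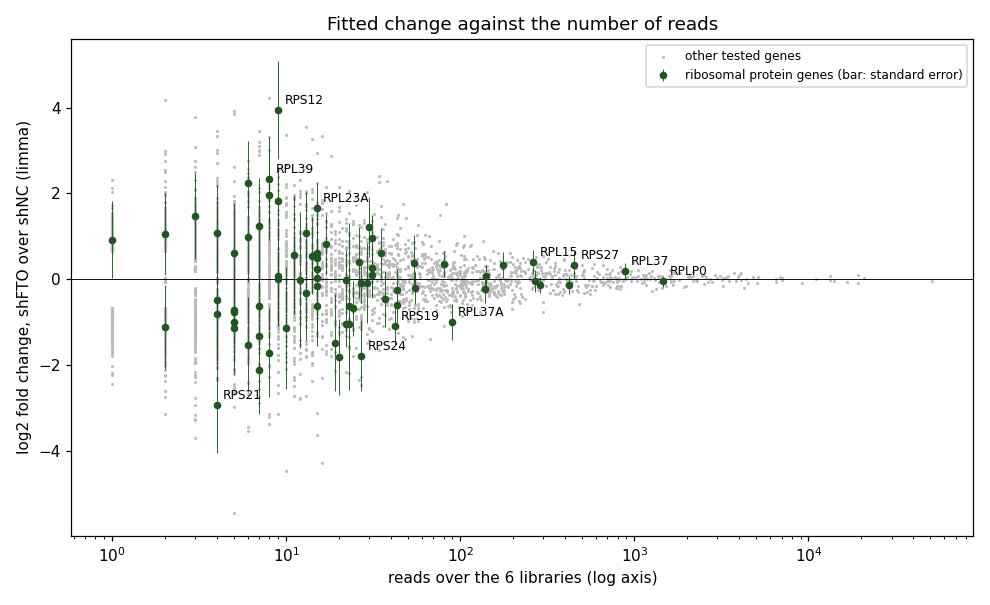
The log2 fold change of shFTO over shNC in limma is plotted against the reads over the 6 libraries on a logarithmic axis, grey for other tested genes and green with standard error bars for ribosomal protein genes. Members with over 100 reads lie between -0.22 and 0.41, and members with few reads spread from -2.92 for RPS21 to 3.94 for RPS12.

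For the most-read members the data bounded the change. In a quasi-Poisson fit to the recovered reads, 0 of 23 members with at least 30 reads were called, as were 0% of all 1021 genes in that fit. An unadjusted p under 0.05 was reached there by 2 of the 23 members, 8.7%, with a background of 5.09%. The 95% interval excluded a 2-fold change for 10 of the 23, against a background of 51.1%, and these were the 10 members with the most reads. RPLP0 had 627 ± 76.4 FPKM in shNC and 611 ± 118 in shFTO (SD, n = 3), so that limma put the log2 difference at -0.05 (SE 0.13, adjusted p = 0.930), and the interval in the fit to reads ran from -0.24 to 0.20. RPL37 had 170.2 ± 31.2 and 196 ± 40.9 FPKM, with an interval from -0.06 to 0.49. RPS27 had 635.1 ± 82.5 and 833 ± 286 FPKM, with 189 and 263 reads. Its limma estimate was 0.34 on the log2 scale (SE 0.31, adjusted p = 0.772), and its interval in the fit to reads ran from 0.04 to 0.77 (adjusted p = 0.778). Without shFTO replicate 2 the limma log2 fold change of RPS27 was 0.62 (adjusted p = 0.385), and without shFTO replicate 3 it was 0.10.

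The summed level of the family differed more among the shFTO libraries than between the group means. Summed over the 77 genes, reads per 100000 were 978, 906 and 953 in shNC replicates 1, 2 and 3, and 1101, 768 and 1052 in shFTO replicates 1, 2 and 3. The shFTO libraries thus held both the 2 highest values and the lowest one. The Wilson 95% interval was 715 to 826 in shFTO replicate 2, below the intervals of the other 5 libraries, of which the lowest began at 849; these intervals cover counting error only. The groups had 946 ± 36.6 and 974 ± 180 (179.5) per 100000 (SD, n = 3), and without shFTO replicate 2 the shFTO mean was 1076.

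This spread lay in the abundant genes. The 10 most-read members had 746, 722 and 729 reads per 100000 in shNC and 899.8, 584 and 846 in shFTO. The other 67 had 232, 184 and 223 in shNC and 201, 185 and 206 in shFTO, where shFTO replicate 2 was close to shNC replicate 2. All 10 of the most-read members had their lowest shFTO value in replicate 2. The same held for 40.5% of the 410 genes with at least as many reads as the tenth member. Over all 6 libraries, however, shFTO replicate 2 was the lowest for only 6 of the 10. RPL37, RPL11, RPL15 and RPS4X were lowest in an shNC library. Over the 6 libraries, shFTO replicate 2 was the lowest for 9 of the 23 members with at least 30 reads, 39.1%, against 19.9% of all 1021 such genes, and shNC replicate 2 for 7 of 23, 30.4%, against 18.3%. Members did not all vary alike: in shNC replicate 2 RPLP0 had its lowest value of that group and RPL37 its highest. Within the shFTO group alone, of the 23 members 17 were lowest in replicate 2, 73.9%, against 40.2% of all 1021 genes with at least 30 reads. The summed reads of each subunit were also lowest in this library, with 298, 219 and 316 per 100000 for the small and 803, 549.5 and 736 for the large subunit in shFTO replicates 1, 2 and 3. This library had 94083 reads, the fewest of the shFTO libraries, against 106245 in replicate 1 and 103462 in replicate 3. In shNC replicate 3 there were 93629. Values of RNA quality per library were not used here, and the part of depth or RNA quality in this spread was not tested.

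**Figure D4:**
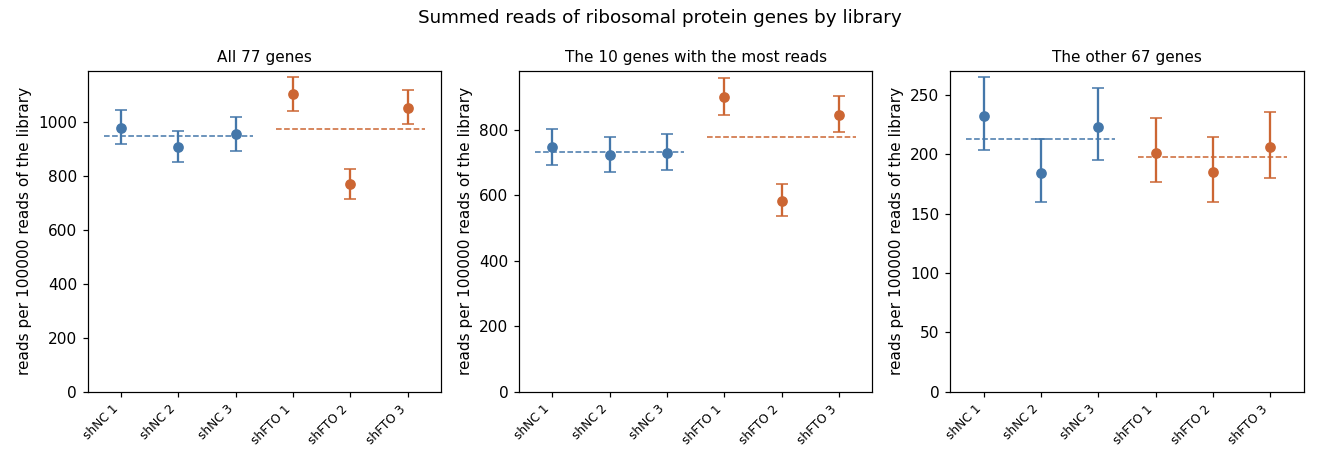
Points are the summed reads of ribosomal protein genes per 100000 reads of each library, with Wilson 95% intervals as bars and group means as dashed lines, for all 77 genes, the 10 with the most reads and the other 67. In the first 2 panels shFTO replicate 2 lies below the other libraries, at 768 and 584.

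By place in the ribosome, 0 members were called in any group, and the groups' median log2 fold changes ran from -0.13 at the exit tunnel to 0.55 on the beak, against 0.00 (0.00395) over all genes tested. The beak median is the value of RPS27A, the middle of 3 genes with 25 reads in all. RPS27A had 7 reads in each group and 0 in shNC replicate 1, and without that library its log2 fold change was -0.69. In the stalk, where RPLP0 carries pairs of RPLP1 and RPLP2 beside RPL12 at the base, the members were very unequal: 1466 reads for RPLP0, 54 for RPL12, 4 for RPLP1 and 1 for RPLP2. RPL12 had 60.5, 40.4 and 8.71 FPKM in shNC and 46, 34.7 and 31.5 in shFTO, so shNC replicate 3 was the lowest library. Its log2 fold change was 0.38 (SE 0.65, adjusted p = 0.878) and -0.41 without shNC replicate 3. The 3 reads of RPLP1 in shNC were all in replicate 3, with 1 read in shFTO, and the single RPLP2 read was in shFTO replicate 1.

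RPL5 and RPL11 carry 5S ribosomal RNA into the large subunit and, when free, bind the p53 regulator MDM2. RPL11 had 192 ± 52 FPKM in shNC and 173 ± 14.8 in shFTO (adjusted p = 0.842 in limma), while RPL5 had 6.73 ± 6 and 7.03 ± 5.38 from 15 reads. The 2 partners thus differed in level in every library. Of the 8 genes of the peptide exit tunnel wall and mouth, 3 estimates were higher and 5 lower, with a median log2 fold change of -0.13. Among them RPL31 had 85.8 ± 13.3 and 85.6 ± 27 FPKM, and RPL4, whose loop lines the tunnel, had 44.6 ± 6.36 and 38.9 ± 11. RPL19, also of that list, had 23.5 ± 13.3 and 17.2 ± 4.78 FPKM. RPL37A, a small zinc-binding protein of the large subunit, had 89 reads and the largest distance from 0 among the estimates of members with over 60 reads. It had 34.2, 22.3 and 43 FPKM in shNC and 19.7, 13.7 and 14 in shFTO, so every shFTO library lay below every shNC library. Its reads were 59 and 30, its log2 fold change was -0.99 (SE 0.42, unadjusted p = 0.0221, adjusted p = 0.772), and it ran from -1.25 to -0.79 (-1.245 to -0.787) with 1 library left out. In the fit to reads RPL37A had a log2 change of -1.04 (95% interval -1.88 to -0.19, adjusted p = 0.774).

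In the small subunit, RPS2 and RPS3 line the entry of the mRNA channel and RPS15 and RPS23 lie near the decoding site. RPS3 had 7.66 ± 1.92 FPKM in shNC and 12.6 ± 4.83 in shFTO, RPS2 had 15.9 ± 11.1 and 27.3 ± 9.32, RPS15 had 21 ± 5.39 and 21.8 ± 11.7, and the median log2 fold change of the 4 was 0.26. For RPS3 every shFTO value lay above every shNC value, on 13 reads in shNC and 22 in shFTO. Its log2 fold change was 0.62 (SE 0.59, adjusted p = 0.772 in limma). The groups overlapped for the remaining abundant members. RPS4X had 88.2 ± 29.7 and 112 ± 38.2 FPKM, RPL35A 77.8 ± 12.1 and 85 ± 30.4, and RPL15 52.5 ± 12.7 and 70.1 ± 16.6. At the mRNA exit and platform, RPS14 had 144 ± 17.3 and 135 ± 41.2 FPKM (adjusted p = 0.870), with 212 and 211 reads. RPSA, also a laminin receptor, had 14 of its 29 reads in shNC replicate 1, and RPS26 had 4 reads in shNC and 7 in shFTO. RPS19, the gene most often mutated in Diamond-Blackfan anaemia, an inherited failure of red cell production, had 30.6, 22.9 and 30.9 FPKM in shNC and 8.16, 12.3 and 19.6 (19.55) in shFTO. All shFTO values lay below all shNC values, with a log2 fold change of -1.09 (SE 0.45, unadjusted p = 0.0205, adjusted p = 0.772). In the quasi-Poisson fit to reads RPS19 had -1.05, and the 95% interval of -2.24 to 0.14 held no change (adjusted p = 0.920). Pseudogenes of RPS19 had 3 reads in shNC and 5 in shFTO. RPS24, mutated in the same disease, had 9.48, 13.9 and 5.46 FPKM in shNC and 1.2, 4.07 and 1.23 in shFTO, from 22 and 5 reads, again without overlap. Its log2 fold change was -1.78 (SE 0.83, adjusted p = 0.772). Of 19 genes linked to this anaemia, 18 were tested, 0 were called, 7 estimates were higher and 11 lower, and the median was -0.09.

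RPS12, on the beak of the small subunit, had the highest estimate of all members. It had 0, 0 and 1 reads in shNC replicates 1, 2 and 3 and 2, 2 and 4 in shFTO replicates 1, 2 and 3, or 5.57 ± 9.65 and 41.1 ± 16.9 FPKM. Every shFTO library was above every shNC library, on 9 reads in all. The log2 fold change was 3.94 (SE 1.13, unadjusted p = 0.0098, adjusted p = 0.772), which depends on the pseudocount since 2 libraries are at 0. Relative to library size, RPS12 reads in shFTO were 7.61 times those in shNC; the exact 95% interval, for counting error only, spanned 1.02 to 338. Limma called RPS12 under several other settings, among them with a pseudocount of 0.1 (6.15, adjusted p = 0.000615), with no filter (adjusted p = 4.22e-06) and without shNC replicate 3 (5.32, adjusted p = 3.84e-06), and limma-voom did not (1.97, adjusted p = 0.737). The other beak genes were RPS27A, made as a fusion with ubiquitin, with 7 and 7 reads, and RPS10, with 2 reads in shNC and 0 in shFTO.

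Other members among the 4 with the smallest p in either direction also had few reads, apart from RPS19 with 42, RPL37A with 89 and RPS24 with 27. RPL23A, at the tunnel mouth where the signal recognition particle docks, had 1, 1 and 1 reads in shNC and 3, 3 and 6 in shFTO (log2 fold change 1.65, SE 0.60, adjusted p = 0.772). The ratio of reads was 3.80, with an exact interval from 1.03 to 21. The 91 pseudogenes named after RPL23A had 0 reads in shNC and 3 in shFTO. RPL10A, near the exit of transfer RNA, had 2 and 7 reads, and RPL39, a very small tunnel protein, had 1 and 7, of which 5 were in shFTO replicate 1. RPS21 had 0, 2 and 2 reads in shNC and 0 in each shFTO library; the exact interval of its ratio ran from 0 to 1.44 and so held no change. RPL36A, RPL17 and RPLP2 had reads in shFTO only, and RPS21 and RPS10 in shNC only, with 4 reads at most; RPL36A and RPL17 are named after their values were seen.

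**Figure D5:**
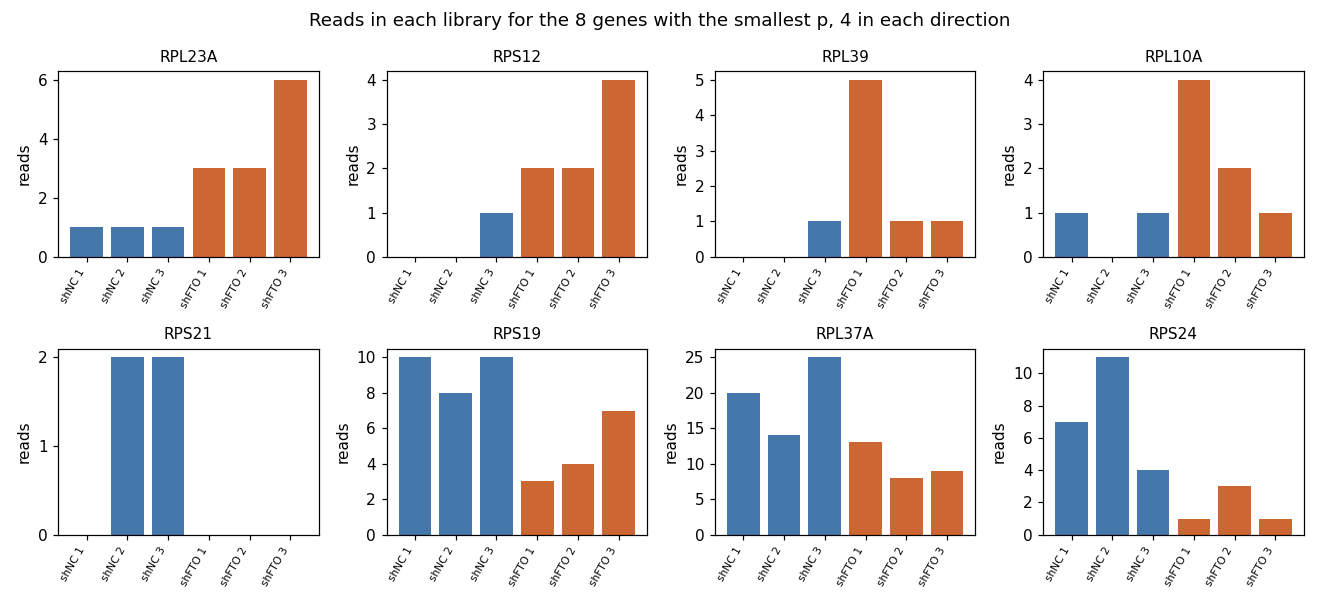
Bars are the recovered reads in each library, blue for shNC and orange for shFTO, for the 4 genes with the smallest p among estimates higher in shFTO (top row) and the 4 among estimates lower in shFTO (bottom row). RPL37A has the most reads of the 8, and RPS12, RPL39, RPL10A and RPS21 have 4 to 9 reads each.

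Genes that work with the ribosomal proteins were read from fixed lists, and 0 were called in each. Of 13 paralogs and fusions outside the rule, 8 had reads, among them RPL22L1 with 5 and 8, RPS27L with 0 and 8, and FAU with 4 in all. Of 56 ribosome assembly factors, 34 were tested, 18 estimates were higher and 16 lower, with NOP58, a core protein of the RNA methylation machinery of the nucleolus, at 65.4 ± 33.8 and 49.3 ± 14.2 FPKM. Nucleolin (NCL) had 15.2 ± 4.54 and 13.9 ± 8.93 FPKM, and NPM1, a nucleolar chaperone, 10.8 ± 4.95 and 14.4 ± 3.73. The chaperones and importers of ribosomal proteins had 6 of 11 genes tested, with all 6 estimates higher and a median of 0.19. Over all 4932 genes tested, 2485 estimates were higher. The most-read genes of this list lay near 0, with limma log2 fold changes of 0.03 (SE 0.24) for NAP1L1, 0.01 (SE 0.29) for TNPO1 and 0.08 (SE 0.47) for IPO7. Other TOP mRNAs had 15 of 19 tested, with a median of 0.03. There EEF1A1, the elongation factor that delivers transfer RNA, had 130 ± 7.48 and 150.4 ± 13 FPKM (adjusted p = 0.772), and PABPC1, the poly(A)-binding protein, 1934 ± 53.7 and 1942 ± 97.6. Of the mTORC1 and LARP1 list 9 of 20 were tested, with RPS6KB1, a kinase that phosphorylates RPS6, at 179 ± 18.7 and 177 ± 20.6 FPKM and EIF4E, the cap-binding protein, at 216 ± 8.3 and 215 ± 13.4. MAX, the partner of MYC, had 61.3 ± 16 and 70.4 ± 2.34 FPKM. Of 78 mitochondrial ribosomal protein genes, 39 had reads, 103 in all, with MRPL20, MRPL24 and MRPL36 at 8 each, and 32 were tested, with 17 estimates higher and 15 lower.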

How the data were processed

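RNA was sequenced from 3 shNC and 3 shFTO libraries of MG63 cells. The authors deposited 1 table of FPKM values per gene and library. They named, per the submitters' processing notes, HISAT2 2.2.1 and StringTie 1.3.3b, with FastQC 0.10.1, DESeq2 1.50.2 and HTSeq 0.6.1, on GRCh38; the strand setting of the counting is not given in the sources used here. FPKM times length and depth gave whole reads (within 0.05 read) for 100% of values. The test was limma 3.58.1 (R 4.3.3, trend, robust) on log2(FPKM + 1), with genes kept where either group's mean reached 1 FPKM, and Benjamini-Hochberg adjustment over all 4932 genes. Log2 fold changes are on that scale, which can understate changes of genes at low FPKM. It can also overstate those of genes with few reads and libraries at 0. RPS12 stood at 3.94 on it and at 1.97 in limma-voom, and RPS27A, with 7 reads in each group, stood at 0.55. Alternatives were a pseudocount of 0.1, no filter, at least 10 reads per library, limma-voom and a quasi-Poisson fit (at least 30 reads) on recovered reads, median-of-ratios scaling, a replicate block and each library left out. The fitting script was tested on simulated data. Intervals of read shares (Wilson) and ratios (exact) cover counting error only. Genes named were FTO, the 10 most-read members, the 4 with the smallest p in each direction, the extremes of the quasi-Poisson fit, the stalk, 5S and beak genes, members at 0 and the 3 most-read genes of each other list; others are marked or illustrate a count. RPS4Y1, which the rule also names, is not reported here. Members and lists were chosen with earlier results of these data known.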

Additional observations from a re-analysis of the deposited data

How the results depend on the processing

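The number of genes called among all tested was 2, and became 7 with a pseudocount of 0.1, 9 with no filter, 0 with at least 10 reads per library, 5 in limma-voom, 0 in the quasi-Poisson fit and 17 with the replicate block; with 1 library left out it ran from 2 to 9. Of ribosomal protein genes 0 were called, and 1, RPS12, with a pseudocount of 0.1, with no filter, with the replicate block (adjusted p = 1.71e-06) and without shNC replicate 3, so that leaving out 1 library gave 0 to 1; the cause was not tested. The block has little ground in the data, as same-numbered libraries correlated at -0.0029, 0.0392 and -0.0116 over 705 genes. Counting error at this depth weakens such correlations, so they cannot exclude that same-numbered libraries were handled together. The ratio of summed reads, 1.03, ran from 0.962 to 1.14 with 1 library left out. Of 297 alternative values of 25 named genes, 278 kept direction and side of the threshold. The estimate of RPL31, -0.05, turned to 0.01 (0.013) in the quasi-Poisson fit. With 1 library left out, estimates ran across 0 for RPLP0 (-0.18 to 0.10, highest 0.105), RPS14 (-0.36 to 0.05, highest 0.053), RPL11 (-0.27 to 0.09, highest 0.085), RPL31 (-0.20 to 0.25), RPL35A (-0.15 to 0.39), RPL12 (-0.41 to 0.92), RPL5 (-0.67 to 1.16, lowest -0.665) and RPS27A (-0.69 to 1.24). Depth limits most members: 28 had 1 to 9 reads and 25 had 10 to 29 over the 6 libraries.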
